A study of Mus musculus with 6 samples.

Results

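The genes described here are those of the factors that start and extend protein synthesis. They were taken from the deposited count table by symbol, as every name beginning Eif1 to Eif6, Eef1 or Eef2 that reached 1 CPM, a count scaled to a common library total, in at least 2 of 4 libraries. Of 67 matching symbols among 23306 rows, 63 met that rule. Eif4ebp3 lay just inside it, with 14 to 25 counts per library, and Eif4ebp1 just outside, with 6 to 19 counts. The other symbols left out, Eif4e1b, Eif3j1 and Eif3j2, were listed at 0 in all 4 libraries. In the GENCODE transcripts, 91.9% of the 50-base windows of Eif3j2 and 54.8% of those of Eif3j1 also occur in another gene. The other windows of each gene are its own, and the cause of the counts of 0 was not tested. The match by symbol also took 4 genes that are no initiation factors: Eif2c1 to Eif2c4 are older symbols of the Argonaute genes Ago1 to Ago4, whose proteins carry microRNAs. They are described last and apart, which leaves 59 translation factor genes.

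The libraries hold ribosome-bound RNA of parvalbumin neurons, a class of fast-spiking inhibitory cells, and came from frontal cortex of C57BL6 males. In the RiboTag system, Cre recombinase driven by the parvalbumin promoter switches on a haemagglutinin-tagged ribosomal protein Rpl22, and an antibody then pulls down tagged ribosomes with the transcripts on them. The labels describe the line as PV-Cre animals carrying RPL22HA over a wild type Rpl22 allele. The knockout group had a conditional deletion of Fxr1 by the same Cre, and the control group was wild type for Fxr1. The age of the mice, and whether a library came from 1 animal or several, were not given in the sources used here. The p-values thus describe only the spread among these libraries, part of which may be technical. Of 6 libraries in the series, 4 could be tied to a sample and were used, namely replicates 2 and 3 of wild type and replicates 1 and 3 of knockout.

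Translation starts when eIF2 brings the initiator tRNA to the small ribosomal subunit, with eIF1, eIF1A, eIF3 and eIF5, and the eIF4F complex ties that subunit to the capped mRNA. Elongation needs eEF1A, which delivers each aminoacyl-tRNA, the eEF1B complex, which recharges eEF1A with GTP, and eEF2, which moves the ribosome by a codon. Mature neurons are known for a switch between the paralogs of eEF1A, from Eef1a1 in development to Eef1a2 in the adult, while other cells of the brain keep Eef1a1. Fxr1 belongs to the fragile X family of RNA-binding proteins, which are found on mRNAs and polyribosomes.

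Library totals lay between 9696126 and 10301280 counts, of which the 63 genes took 1.02% to 1.07%. The label of the knockout held: Fxr1 measured 97.9 and 101 CPM in wild type replicates 2 and 3 against 18.0 and 18.5 CPM in knockout replicates 1 and 3. The summed level of 7 parvalbumin neuron markers, none of them at 0, was 9124 and 9377 CPM in wild type against 8961 and 8820 CPM in knockout. This sum was thus lower in both knockout libraries than in both wild type libraries. Transcripts of other cells were also present, with summed levels of 779 to 851 CPM for 6 excitatory neuron markers, 498 to 584 CPM for 5 astrocyte markers, 263 to 369 CPM for 6 oligodendrocyte markers 33.9 to 37.6 CPM for 5 microglial markers and 6.76 to 12.4 CPM for 4 endothelial markers. The 5 measured markers of striatal neurons summed to 51.9 and 51.4 CPM in wild type against 62.8 and 61.6 CPM in knockout, and were the only one of these other cell types whose libraries were separate by genotype. Knockout replicate 3 was the highest of the 4 in astrocyte and oligodendrocyte markers. Rn45s, the ribosomal RNA precursor, took 0.711% of counts in knockout replicate 1 and 0.283% to 0.315% in the other libraries. The part of these differences in the results that follow was not tested. In these bulk samples, fewer cells of a type and less RNA per cell cannot be told apart.

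The pair on which the paralog choice turns is shown first, since its coding sequences decide how well short reads tell the genes apart. Printed are the first 90 coding bases of Eef1a1 and Eef1a2 in the GENCODE M21 transcripts (mm10), 5′ to 3′, with the bases that differ between them in capitals.
Eef1a1: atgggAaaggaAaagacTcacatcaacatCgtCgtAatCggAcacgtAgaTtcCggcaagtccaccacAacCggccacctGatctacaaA
Eef1a2: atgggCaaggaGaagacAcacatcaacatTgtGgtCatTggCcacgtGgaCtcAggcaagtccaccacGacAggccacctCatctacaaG
Eef1a1 lies on the minus strand of chromosome 9 (78478449 to 78489151) and Eef1a2 on the minus strand of chromosome 2 (181147653 to 181157014). All 15 differences in this stretch fall on the third base of a codon. Over the whole coding sequence 79.9% of aligned bases were identical, and the longest run shared by the genes was 23 bases. A read that covers more than 23 coding bases can therefore tell the paralogs apart. Eef1a1 has many copies elsewhere in the genome, however: 60.6% of the 50-base windows of its transcript occurred in 21 other annotated genes, and none of the windows of Eef1a2 did. Reads from those windows may have been dropped or assigned elsewhere, depending on how the authors counted, for which no setting was given in the sources used here.

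Eef1a2 was the main eEF1A transcript on the ribosomes of these neurons. It measured 2294 and 2309 CPM in wild type replicates 2 and 3 against 2305 and 2121 CPM in knockout replicates 1 and 3. Eef1a1 measured 226 and 271 CPM in wild type against 227 and 252 CPM in knockout, and the genotypes overlapped for both genes. Per kilobase of transcript, Eef1a2 made up 89.7% and 88.0% of the pair in wild type and 89.7% and 87.9% in knockout, a level 8.02 ± 0.832 times that of Eef1a1 (SD, n = 4 libraries). When each gene was instead scaled by its number of windows found in no other gene, a choice made after seeing the data, the mean share of Eef1a2 was 75.8%, and that of Eef1a1 went from 11.2% to 24.2%. Eef1a2 stayed the larger under both scalings. The share differed by 0.0496 percentage points between the genotypes, less than the spread within each of them (two-sided exact permutation p = 1). With 2 libraries against 2 this test cannot go below 0.333.

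**Figure D1:**
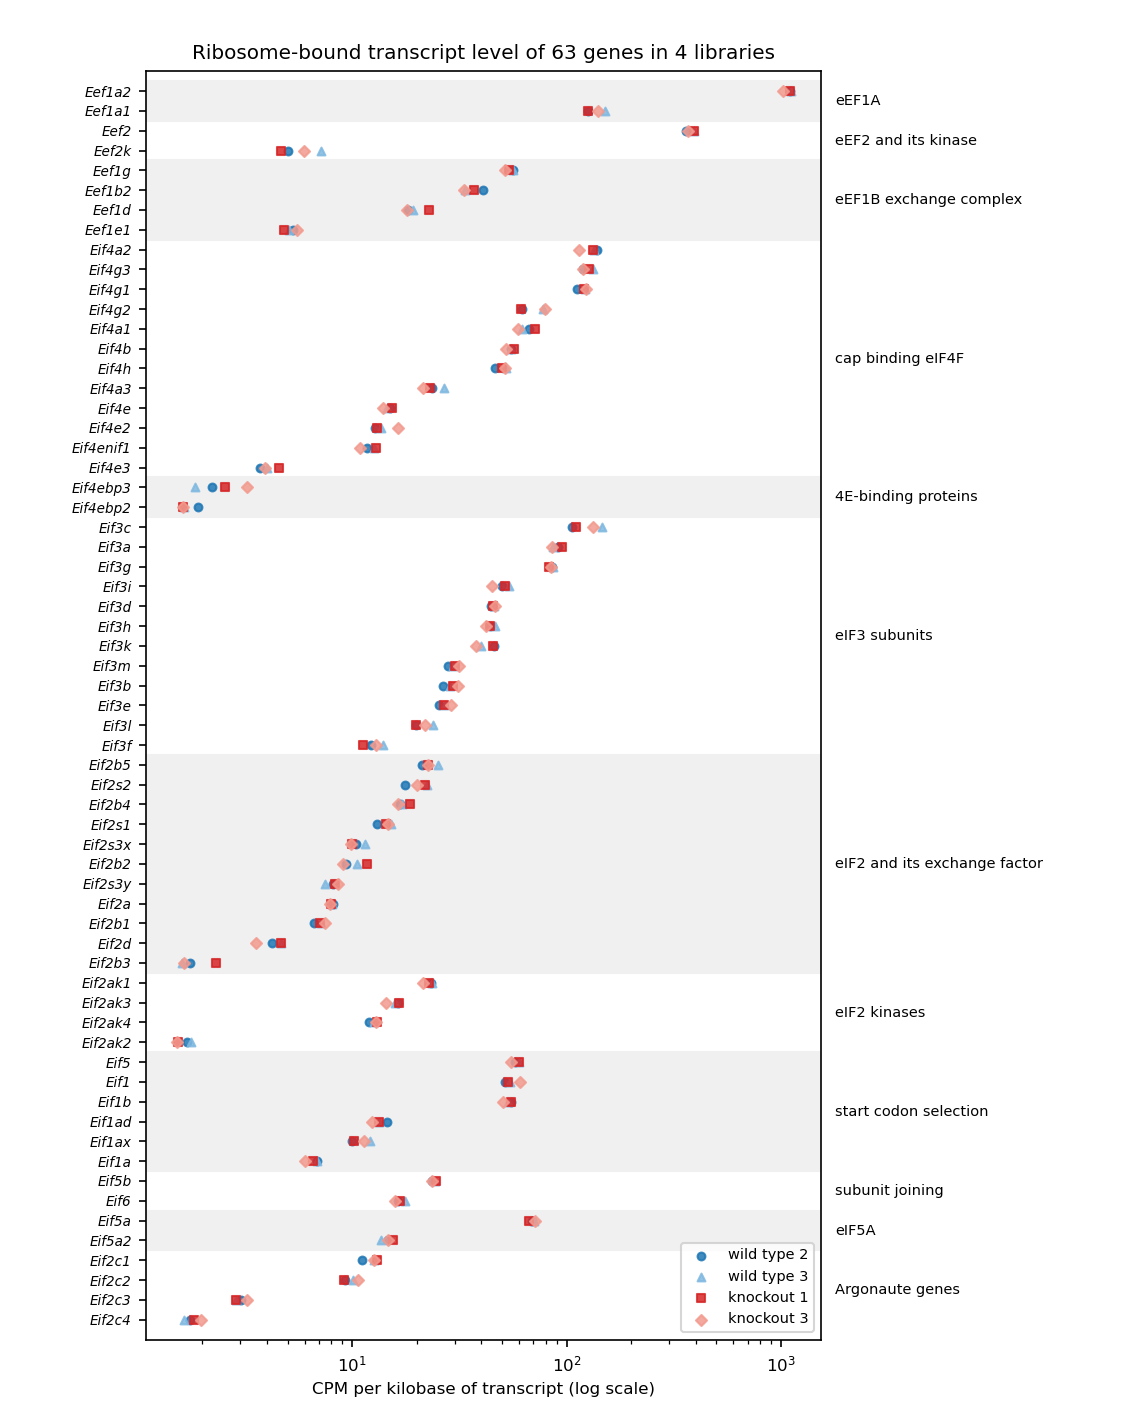
Level of each of the 63 genes in CPM per kilobase of transcript (log axis), with a point for each of the 4 libraries and genes grouped by role. Eef1a2 lies apart at the top and Eef2 comes next, while the 4 libraries of a gene lie close together beside the range of levels between genes.

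Across the whole set, levels per kilobase of transcript spanned from 1.63 ± 0.118 CPM for Eif2ak2 to 1083 ± 43.7 CPM for Eef1a2 (SD, n = 4). Eef2, the translocation factor, came second at 379 ± 15.4. Next came Eef1a1 (136 ± 12.0), Eif4a2 (130 ± 10.9), Eif4g3 (125 ± 6.08), Eif3c (124 ± 18.6) and Eif4g1 (119 ± 4.94), and neighbours in this order differed by less than their spread. Per kilobase of coding sequence, Eef1a2 and Eef2 kept the first places, while Eef1a1 stood at rank 10 with 176 ± 15.5 CPM. The order below the second place thus depended on the length used, and levels that follow are per kilobase of transcript unless coding length is named.

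Elongation factors other than eEF1A were less abundant per length and showed no called difference. The combined level of the eEF1A pair per kilobase was 3.22 ± 0.123 times that of Eef2 and 22.4 ± 0.463 times that of Eef1g (SD, n = 4). As 64.3% of the windows of Eef1g also occur in other genes, its level may be understated. The ratio to Eef1g may then be overstated, and the rank of Eef1g beside Eef1b2 is uncertain. Eef1g, the structural subunit of the eEF1B complex, stood at 54.5 ± 2.15 CPM per kilobase, above the exchange subunits Eef1b2 (36.1 ± 3.54) and Eef1d (19.5 ± 2.22), but by coding length Eef1b2 was higher, at 104 ± 10.2 against 77.6 ± 3.06. Eef1e1, a small protein of the tRNA synthetase complex that shares a fold with eEF1B, was lowest at 5.18 ± 0.311. Eef2 measured 1117 and 1208 CPM in wild type against 1212 and 1143 CPM in knockout, with a log2 fold change of 0.02 (SE 0.07).

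Eef2k, whose kinase phosphorylates eEF2 and slows elongation, varied more between libraries of a genotype than between genotypes. It measured 33.0 and 46.8 CPM in wild type replicates 2 and 3 against 30.5 and 39.1 CPM in knockout replicates 1 and 3. In both genotypes replicate 3 was the higher library, and the genotypes overlapped. The log2 fold change was −0.20 (SE 0.19), and its 95% interval ran from −0.63 to 0.23.

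Among the genes of cap-dependent initiation, the RNA helicase and scaffold subunits of eIF4F were the most abundant per kilobase of transcript. By coding length Eif4h (183 ± 9.91) stood above the scaffold Eif4g1 (140.0 ± 5.80) and the helicase Eif4a1 (94.2 ± 7.66). Eif4a2 and Eif4a1 encode near-identical helicases, and Eif4a3 a relative that belongs to the exon junction complex. Eif4a2 measured 374 and 365 CPM in wild type replicates 2 and 3 against 358 and 308 CPM in knockout replicates 1 and 3. Both knockout libraries lay below both wild type libraries. Its log2 fold change of −0.15 (SE 0.07) had the smallest unadjusted p of the 63 genes, 0.0541 in edgeR, where its adjusted p was 0.998. Without knockout replicate 1 the log2 fold change was −0.26 and without knockout replicate 3 it was −0.047. Eif4a1 overlapped between the genotypes, at 118 and 109 CPM against 126 and 105 CPM.

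Per kilobase, Eif4a2 made up 60.5% and 60.4% of the 3 helicase genes in wild type and 58.4% and 58.5% in knockout, while Eif4a1 took 29.2% and 27.6% against 31.4% and 30.5%. The shares of both genes did not overlap between genotypes, at the smallest p this design allows (two-sided exact permutation p = 0.333, and 0.833 adjusted over 25 shares). Of those 25 shares, 10 did not overlap between genotypes, in 5 of the 10 sets. For levels of single genes, the genotypes did not overlap for 30.1% of all tested genes. Shares of a set depend on each other, and both genes of a pair always separate together. Whether the count of shares exceeds a background was not tested. Which of the helicases led depended on the scaling: 65.3% of the windows of Eif4a1 also occur in other genes, and by windows found in no other gene Eif4a1 averaged 51.0% and Eif4a2 40.3%. Eif4a3 stood at 23.7 ± 2.25 CPM per kilobase, with a log2 fold change of −0.18 (SE 0.11). Its libraries did not overlap either, at 35.7 and 40.5 CPM in wild type against 34.7 and 32.4 CPM in knockout.

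The scaffold genes Eif4g1, Eif4g2 and Eif4g3 form a set of 3 paralogs, and none of them took most of the set. Eif4g3 and Eif4g1, the classical scaffolds that bridge cap and ribosome, made up 39.7 ± 1.79% and 38.0 ± 0.919% per length (SD, n = 4). Eif4g2 serves cap-independent initiation, lacks the part that binds the cap-binding protein eIF4E, and made up 22.3 ± 2.15%. By coding length the order was another, with Eif4g2 at 38.2 ± 2.98%, Eif4g3 at 35.7 ± 2.21% and Eif4g1 at 26.1 ± 1.02%. Eif4g2 measured 495 and 622 CPM in wild type replicates 2 and 3 against 490.0 and 631 CPM in knockout replicates 1 and 3. Replicate 3 was high in both genotypes, and the log2 fold change was 0.0046 (SE 0.20). Eif4g1 and Eif4g3 varied less, with log2 fold changes of 0.05 (SE 0.07) and −0.03 (SE 0.07). Eif4b and Eif4h, cofactors of the helicase, stood at 54.8 ± 1.98 and 49.97 ± 2.71 CPM per kilobase.

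The cap-binding proteins themselves were lower than the scaffolds Eif4g1 and Eif4g3, by a margin that depended on the length used. Eif4e, the main cap-binding protein, stood at 14.7 ± 0.573 CPM per kilobase, and its relative Eif4e2, which takes part in translational repression, at 13.9 ± 1.61. These neighbours did not differ beyond their spread, and Eif4e3 was lower at 4.04 ± 0.355. By coding length Eif4e, at 113 ± 4.39, stood above Eif4e2, at 62.2 ± 7.21, and came closer to Eif4g1, at 140.0 ± 5.80, and Eif4g3, at 192 ± 9.36. Eif4e2 measured 44.4 and 47.3 CPM in wild type against 45.1 and 56.5 CPM in knockout, where replicate 3 alone was high. Its log2 fold change was 0.15 (SE 0.11), and −0.02 without knockout replicate 3.

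The 4E-binding proteins, which keep eIF4E from its scaffold until mTORC1 phosphorylates them, were among the lowest genes per kilobase of transcript. Eif4ebp2, the form known as the main one in brain, measured 11.1 and 9.48 CPM in wild type against 9.44 and 9.36 CPM in knockout, so the knockout libraries lay just below. The level of Eif4e was 8.67 ± 0.640 times that of Eif4ebp2 by transcript length and 4.14 ± 0.305 times by coding length (SD, n = 4), where Eif4ebp2 stood at rank 42 of the set instead of 62. Eif4ebp3 had the highest log2 fold change of the 63 genes, 0.52 (SE 0.40), and the widest interval, from −0.31 to 1.34. That value rests on 16 and 14 counts in wild type against 19 and 25 in knockout, and 65.5% of the windows of Eif4ebp3 lie in another annotated gene.

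The eIF3 complex, which holds the small subunit and its partners together, gave 12 measured subunit genes. Its proteins assemble in equal numbers, but the transcripts did not: the highest stood 9.83 ± 0.826 times as high as the lowest per kilobase of transcript and 6.25 ± 0.400 times per kilobase of coding sequence (SD, n = 4). Eif3c (124 ± 18.6), Eif3a (89.4 ± 4.59) and Eif3g (84.9 ± 1.37) led, and Eif3l (21.3 ± 1.88) and Eif3f (12.6 ± 1.11) were lowest, in the reverse order by coding length. Of these genes 5 had a log2 fold change above 0 and 7 below, with a median of −0.04. Eif3b, a core subunit, measured 78.2 and 83.9 CPM in wild type against 87.2 and 92.1 CPM in knockout, without overlap. Its log2 fold change of 0.15 (SE 0.09) had the smallest unadjusted p among genes with a value above 0, at 0.101. Eif3i was on the other side at −0.11 (SE 0.10), with overlapping libraries.

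Eif3c varied most within the complex. It measured 360.1 and 494 CPM in wild type replicates 2 and 3 against 375 and 447 CPM in knockout replicates 1 and 3. Replicate 3 was again the high library in both genotypes. The log2 fold change was −0.06 (SE 0.23), and its interval, from −0.82 to 0.71, reaches past a 1.5-fold change in either direction.

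The subunits of eIF2 lay close together per length: Eif2s2 stood at 20.5 ± 2.10 CPM per kilobase, the gamma subunit genes Eif2s3x and Eif2s3y together at 18.6 ± 0.289 and Eif2s1, the subunit whose phosphorylation shuts down initiation, at 14.3 ± 0.899. The gamma subunit has a copy on each sex chromosome, and both were read in these male mice. The first 90 coding bases of the copies are shown because reads must separate them, again with the differing bases in capitals.
Eif2s3x: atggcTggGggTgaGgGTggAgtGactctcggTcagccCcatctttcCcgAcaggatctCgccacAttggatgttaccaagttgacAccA
Eif2s3y: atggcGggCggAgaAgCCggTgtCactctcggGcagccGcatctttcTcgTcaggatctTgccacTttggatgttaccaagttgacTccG
Eif2s3x lies on chromosome X (94188707 to 94212862) and Eif2s3y on chromosome Y (1010543 to 1028847), in mm10. The stretch holds 16 differences, 15 of them on the third base of a codon. Over the coding sequence 86.3% of bases were identical. The X copy measured 37.9 and 42.0 CPM in wild type against 36.6 and 36.0 CPM in knockout, and the Y copy 14.9 and 13.7 CPM against 15.2 and 15.8 CPM. Both pairs of libraries were separate by genotype, in opposite directions, with log2 fold changes of −0.14 (SE 0.11) and 0.12 (SE 0.15), neither past the threshold. Per kilobase, Eif2s3y made up 43.8% and 39.3% of the pair in wild type and 45.2% and 46.6% in knockout (two-sided exact permutation p = 0.333). As 36.2% of the windows of Eif2s3x occur in other genes, its share may be understated: by windows found in no other gene, the Y copy averaged 33.5%, and by coding length 28.2%.

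The exchange factor eIF2B, which recharges eIF2, was uneven, from Eif2b5, the catalytic subunit, at 22.8 ± 1.67 CPM per kilobase to Eif2b3 at 1.83 ± 0.322. Eif2b3 rested on 62 to 87 counts per library and had a log2 fold change of 0.23 (SE 0.22). All 4 kinases that phosphorylate eIF2 were read. Per kilobase Eif2ak1, the haem-regulated kinase, made up 43.2 ± 0.710% of them, Eif2ak3, the kinase PERK of the endoplasmic reticulum, 29.8 ± 0.941%, Eif2ak4, the amino acid sensor GCN2, 23.9 ± 1.28% and Eif2ak2, the double-stranded RNA sensor PKR, 3.09 ± 0.183% (SD, n = 4). By coding length the order was the same, at 57.4%, 23.0%, 14.7% and 4.92%. The share of Eif2ak4 was 22.5% and 23.5% in wild type and 24.1% and 25.6% in knockout. Those libraries did not overlap, with a difference of 1.84 percentage points beside SDs of 0.691 in wild type and 1.03 in knockout (two-sided exact permutation p = 0.333). The shares of Eif2ak1 and Eif2ak2 did not overlap either, and were lower in knockout. Over all paralog sets, 10 of 25 shares did not overlap between genotypes, beside 30.1% for levels of all tested genes. Shares of a set depend on each other. None of the kinases passed the test, with log2 fold changes from −0.17 (Eif2ak2) to 0.07 (Eif2ak4).

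**Figure D2:**
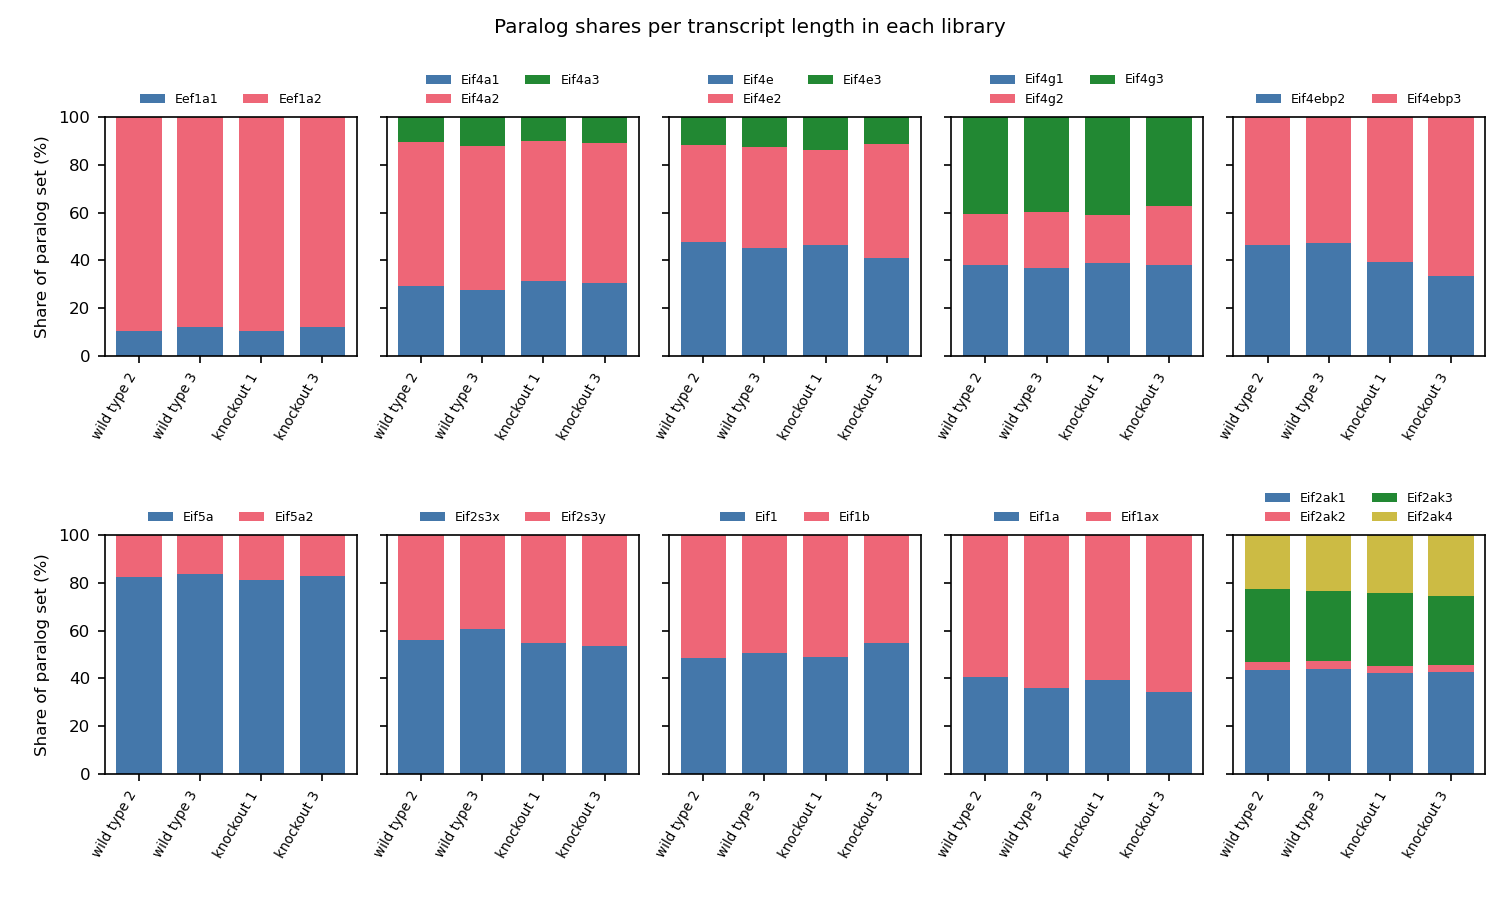
Share of each paralog in its set per transcript length, as stacked bars for the 4 libraries in 10 sets. Eef1a2 fills 87.9% to 89.7% of its pair in each library. The order of genes changes between libraries for Eif1 and Eif1b, for Eif4e and Eif4e2, and for Eif4g1 and Eif4g3. Eif4e and Eif4e2 stand at 47.6% and 40.6% in wild type replicate 2 and at 40.9% and 47.7% in knockout replicate 3.

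Among the genes of start codon selection, Eif5, the GTPase activator of eIF2, stood at 58.1 ± 2.14 CPM per kilobase. Eif1 (55.1 ± 3.93) and its paralog Eif1b (53.6 ± 2.32) did not differ beyond their spread, while Eif5 lay above Eif1b in each library. By coding length the order was Eif1 (215 ± 15.3), Eif5 (183 ± 6.72) and Eif1b (164 ± 7.08). Eif1 made up 50.7 ± 2.81% of its pair, 56.7% by coding length and 59.5% by windows found in no other gene. Eif1ax took 62.4 ± 2.83% of the pair it forms with Eif1a, the lowest gene of this class at 6.57 ± 0.403 CPM per kilobase. The share of Eif1ax was 74.9% by raw counts and 84.0% by coding length. The last value depends on the gene model used, which gave Eif1a 762 coding bases against 432 for Eif1ax. Eif5a, a factor that helps ribosomes past difficult peptide bonds, made up 82.6 ± 1.01% of its pair per transcript length. Its paralog Eif5a2 has a long untranslated part, and per kilobase of coding sequence the genes came closer, at 216 ± 5.88 and 160.0 ± 7.97 CPM. Eif5a2 is the member nearest to Fxr1, 5.22 Mb away on chromosome 3. It measured 73.6 and 68.6 CPM in wild type against 77.5 and 74.0 CPM in knockout, a log2 fold change of 0.09 (SE 0.09) with separate libraries. Of the subunit joining factors, Eif5b stood at 24.0 ± 0.522 CPM per kilobase and Eif6, which keeps the subunits apart, at 16.6 ± 0.734.

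The deletion of Fxr1 was then compared across the whole set. In the quasi-likelihood test of edgeR, adjusted after Benjamini and Hochberg over 12449 genes, 0 of the 63 genes passed the threshold of 0.05, beside 0.0321% of all tested genes. None reached an unadjusted p under 0.05, beside 3.23% of all tested genes, and DESeq2's Wald test and limma voom likewise gave 0 at either level. With library totals in place of TMM, 1 gene (Eif4a2) reached an unadjusted p under 0.05 in edgeR, beside 379 of all 12449 tested. With no low-count filter Eif4a2 was again the 1 gene to do so, beside 546 of all 18057 tested. These counts are for fits to all libraries used, and fits that left a library out are not counted here. The log2 fold change was above 0 for 29 genes and below 0 for 34, and below 0 for 50.4% of all tested genes. The median was −0.01, beside −0.0015 over all tested genes. Libraries of the genotypes did not overlap for 18 of the 63, or 28.6%, against 30.1% of all tested genes. Knockout was higher for 7 and lower for 11, with backgrounds of 14.9% and 15.2%.

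The intervals describe how large a difference could have gone unseen given the spread among these libraries, which may not reflect that between animals. Standard errors of the log2 fold change ran from 0.064 for Eef1a2 to 0.40 for Eif4ebp3, with a median of 0.10, against 0.135 over all tested genes. For 57 of the 63 genes the 95% interval lay within a 1.5-fold change in either direction, and for 42 within 1.25-fold. Of all 12449 tested genes, 8979 lay within the first bound and 5050 within the second. With 2 libraries per genotype, the fit borrows its estimate of spread in part from other genes. Eef1a2 had a log2 fold change of −0.06 and an interval from −0.19 to 0.08. The genes with the smallest p in each direction were Eif3b, Eif4e2, Eif4ebp3, Eif2c1 and Eef1d above 0, and Eif4a2, Eif4a3, Eif2s3x, Eef1g and Eif3i below. Eef1d measured 51.6 and 54.4 CPM in wild type against 64.7 and 51.2 CPM in knockout, where replicate 1 alone was high. Eef1g measured 105 and 104 CPM in wild type against 101 and 96.5 CPM in knockout, a log2 fold change of −0.09 (SE 0.08).

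**Figure D3:**
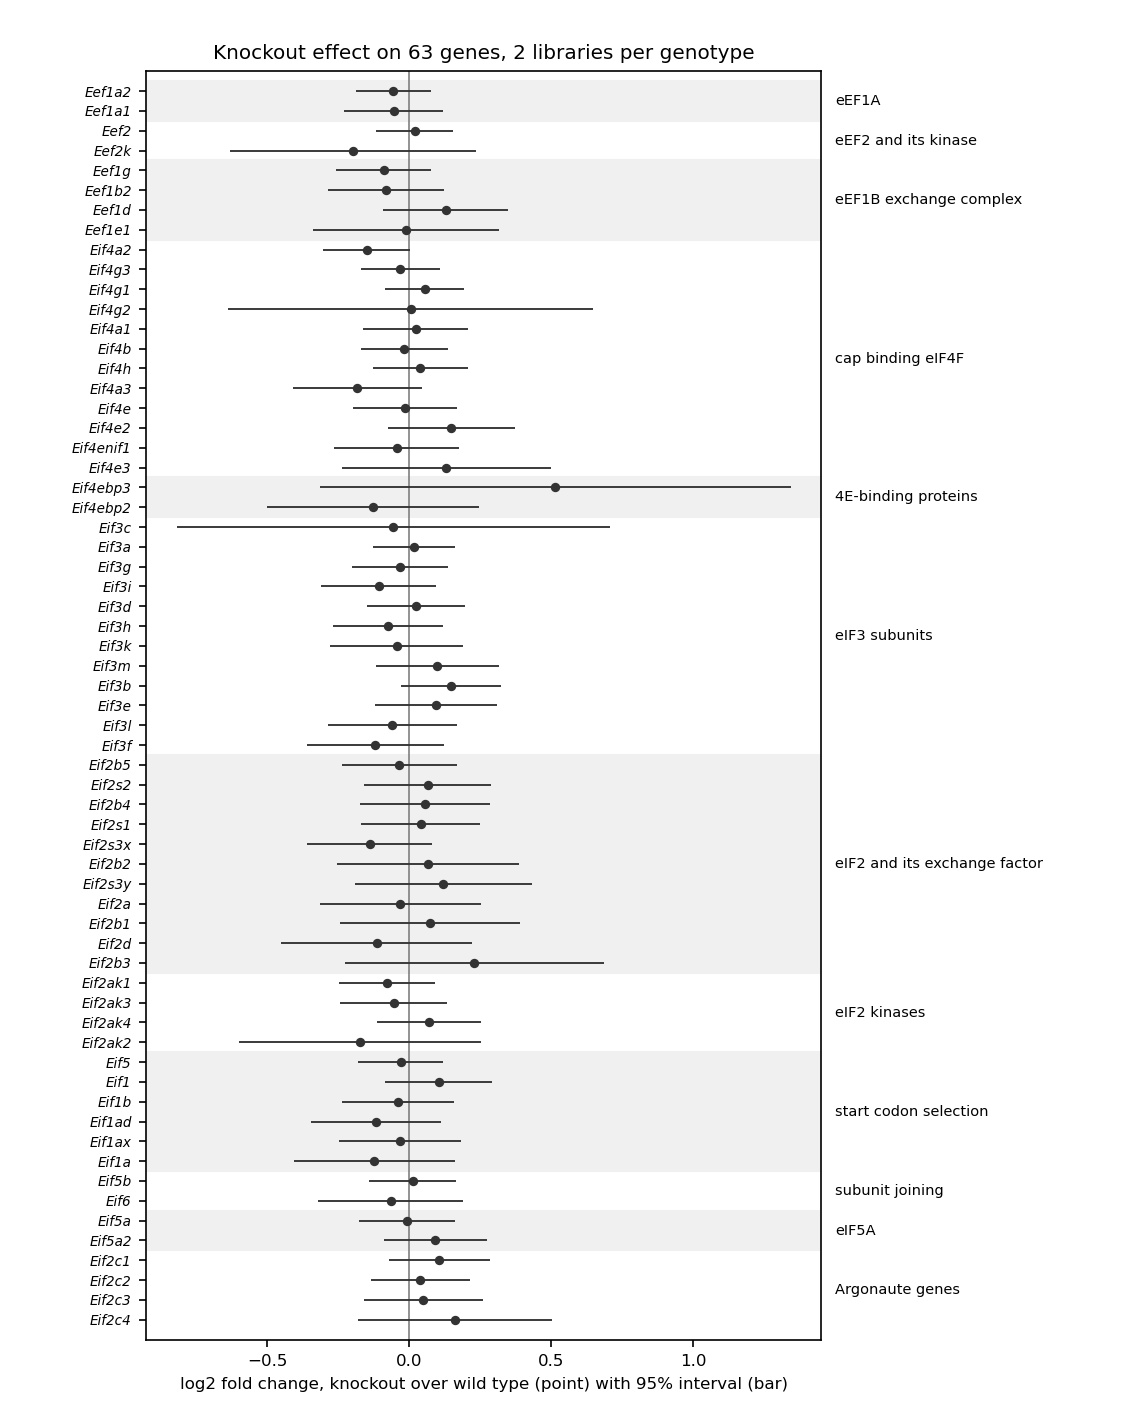
Log2 fold change of knockout over wild type for each of the 63 genes (points) with its 95% interval (bars), 2 libraries per genotype, genes in the order of the plot of levels. All intervals include 0, and the widest belong to Eif4ebp3, Eif3c and Eif4g2.

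Transcripts with a 5′ terminal oligopyrimidine tract are the class whose translation follows mTORC1, and 10 of the genes are known for one: Eef1a1, Eef1a2, Eef1b2, Eef1d, Eef1g, Eef2, Eif3e, Eif3f, Eif3h and Eif4b. Of these 3 had a log2 fold change above 0 and 7 below, with a median of −0.06, and 0 passed. The other 53 genes had a median of −0.0082, with 26 above and 27 below. The values of the 10 genes ran from −0.12 for Eif3f to 0.13 for Eef1d.

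The median absolute difference between libraries of a genotype was 0.10 (log2 CPM) in wild type and 0.12 in knockout, beside 0.125 and 0.135 over all tested genes. The median absolute log2 fold change between genotypes was 0.07, beside 0.09 over all tested genes, and is smaller by construction because it averages over libraries. Eef2k, Eif3c and Eif4g2 were high in replicate 3 of both genotypes, by 0.50, 0.46 and 0.33 in wild type and by 0.35, 0.26 and 0.36 in knockout. Over the 63 genes the differences between libraries correlated across genotypes at Pearson's r = 0.364 and Spearman's rho = 0.314, against 0.152 and 0.17 over all 12449 tested genes. Without those 3 genes, which were chosen after their values were seen, r was 0.17 over 60 genes. Genes are not independent replicates, and all points share the same 4 libraries, so these are descriptions. The replicate numbers carry no pairing, and the direction of subtraction is arbitrary.

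**Figure D4:**
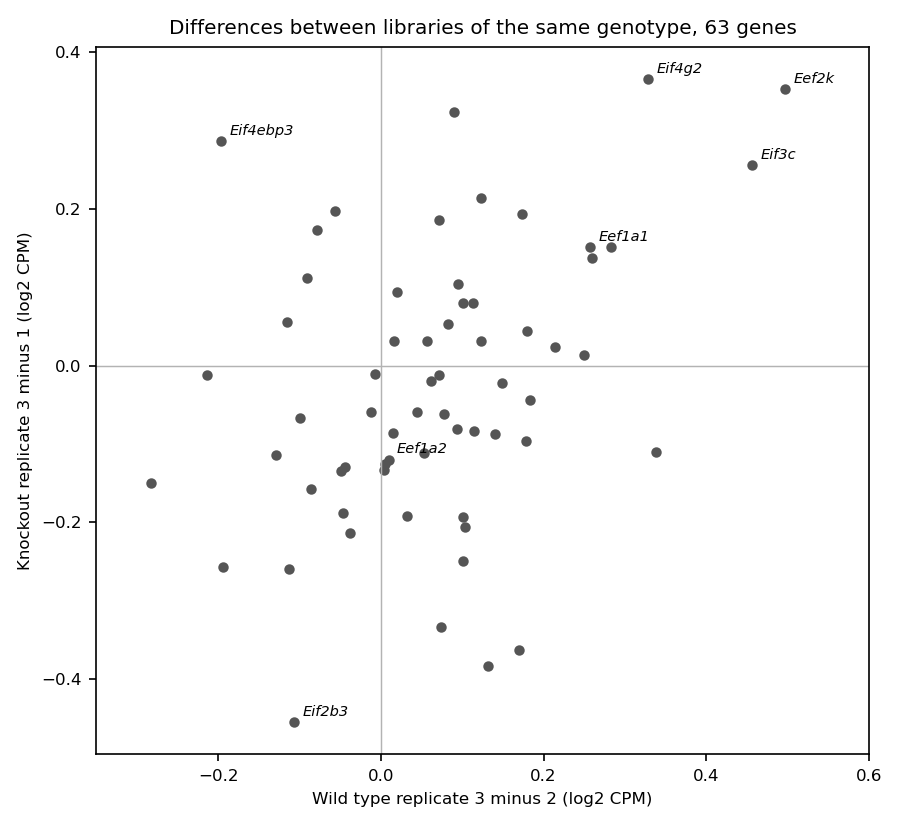
Difference between the libraries of a genotype (log2 CPM) for 63 genes, wild type on the horizontal and knockout on the vertical axis. Eef2k, Eif3c and Eif4g2 lie at the upper right, high in replicate 3 of both genotypes, while Eef1a2 lies near 0 in wild type and at −0.12 in knockout.

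Other genes of translation, taken from a list of 52 symbols of which 50 were tested, are given for comparison. None passed by edgeR in either direction, 22 had a log2 fold change above 0 and 28 below, and the median was −0.02. An unadjusted p under 0.05 was reached by 2 of the 50, beside 3.23% of all tested genes, and whether this differs from the 0 of 63 was not tested. Pelo, which rescues stalled ribosomes, measured 13.5 and 14.2 CPM in wild type against 11.7 and 9.55 CPM in knockout (log2 fold change of −0.38 with SE 0.17 and an edgeR adjusted p of 0.998). Dph2, an enzyme that makes the diphthamide residue of eEF2, measured 4.92 and 5.96 CPM in wild type against 6.66 and 8.78 CPM in knockout (log2 fold change of 0.50 with SE 0.23 and an edgeR adjusted p of 0.998). In the mTORC1 and MNK arm 5 of 12 genes were above 0 and 7 below, and the smallest p belonged to Mtor, at −0.12 (SE 0.07). The smallest p belonged to Denr (−0.14, SE 0.09) among noncanonical initiation genes, to Mrrf (0.15, SE 0.12) among mitochondrial factors, to Paip2b (0.13, SE 0.10) among poly(A) binding genes and to Ppp1cb (−0.04, SE 0.07) among eIF2 phosphatase genes.

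The 4 Argonaute genes caught by the symbol rule were all measured. Eif2c1 (Ago1) stood at 12.4 ± 0.828 CPM per kilobase, Eif2c2 (Ago2) at 9.79 ± 0.706, Eif2c3 (Ago3) at 3.002 ± 0.174 and Eif2c4 (Ago4) at 1.80 ± 0.139 (SD, n = 4). All 4 had a log2 fold change above 0, from 0.04 for Eif2c2 to 0.16 for Eif2c4, and 0 passed. Without knockout replicate 3, Eif2c2 was at −0.07 and Eif2c3 at −0.041, and Eif2c2 was also below 0 without wild type replicate 2, at −0.02. By coding length Eif2c2, at 52.4 ± 3.78 CPM per kilobase, stood above Eif2c1, at 34.8 ± 2.33. Eif2c1 measured 80.6 and 91.6 CPM in wild type against 94.1 and 91.3 CPM in knockout, so that wild type replicate 2 alone was low. Eif2c4 measured 11.5 and 10.8 CPM in wild type against 11.9 and 12.9 CPM in knockout, without overlap. Without the Argonaute genes, the 59 translation factor genes had a median log2 fold change of −0.03, with 25 above 0 and 34 below.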

How the data were processed

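The values the authors deposited are unnormalized counts, 1 row for each gene symbol. A SMARTer stranded kit for total RNA made the libraries, per the labels' protocols, and STAR with the build mm10 was used, per the submitters' processing notes. The counting tool, annotation and use of strand were not given in the sources used here. Overlapping genes and genes with close copies may thus have lost or gained reads. Columns were used where the name matched the title of 1 sample only (4); 2 columns bearing a repeated title were not used. Replicate numbers follow accession order.

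Counts were tested with edgeR 4.0.16 in R 4.3.3 (TMM, filterByExpr, robust quasi-likelihood fits, Benjamini-Hochberg adjustment over 12449 genes, threshold 0.05). CPM values use TMM-scaled totals, except in the rule for members, and log2 differences between libraries use log2(CPM + 0.5). Intervals are 95% from the fitted standard errors. Lengths, coordinates and 50-base windows come from GENCODE M21 (mm10), using the longest protein-coding transcript of each gene; coding sequences were aligned with Biopython 1.88. The test was tried on counts simulated from the mean levels of these libraries. It recovered 76.1% of 67 genes changed 1.5-fold among 12332 tested, and all changed 2-fold or 4-fold. It also called 11 unchanged genes. Only genes above a minimum mean level were changed, and their spread followed the trend over all genes. The recovery therefore does not cover members at low level or with a larger spread of their own. Alternatives were DESeq2 1.42.0 and its size factors, limma 3.58.1 voom, library totals, other filters, non-robust fits, ribosomal and small RNA genes left out, other lengths, and each library left out.

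Genes named are all paralogs compared, the highest and lowest of each class, and the 5 of each direction with the smallest p. Of other translation genes, those with the smallest p per list are named. Further genes give background, or were picked once their values were known. The members and lists were chosen with earlier results of these data known.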

Additional observations from a re-analysis of the deposited data

How the results depend on the processing

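None of the 63 genes passed under the 12 alternatives, of which the filter at 5 CPM left out Eif4ebp3. The Wald test of DESeq2 was run with its own size factors. The lowest adjusted p of a named gene was 0.471, for Eef2k without knockout replicate 3. The count of 4 genes past the threshold over all tested genes became 13 without a filter on low counts, 2 by the Wald test of DESeq2 and 1 with library totals, and ran from 9 to 48 without single libraries. The median log2 fold change of −0.01 ran from −0.028 to 0.041 without single libraries, and was above 0 without wild type replicate 3 (0.041) or without knockout replicate 3 (0.012). The mean share of Eef1a2 of 88.8% became 90.2% by coding length, 90.2% by raw counts and 75.8% by windows found in no other gene, the last chosen after seeing the data. The log2 fold change took the other sign for 36 of the 63 genes when a library was left out, and for 0 under the other alternatives. For the 21 of these among the 41 genes that the naming rule took, ranges were −0.18 to 0.080 (Eef1a1), −0.12 to 0.0027 (Eef1a2), −0.049 to 0.29 (Eef1d), −0.12 to 0.086 (Eef1e1), −0.034 to 0.077 (Eef2), −0.42 to 0.077 (Eef2k), −0.16 to 0.12 (Eif1ax), −0.11 to 0.028 (Eif1b), −0.15 to 0.038 (Eif2ak3), −0.031 to 0.45 (Eif2b3), −0.15 to 0.10 (Eif2b5), −0.26 to 0.19 (Eif3c), −0.11 to 0.15 (Eif4a1), −0.081 to 0.050 (Eif4e), −0.024 to 0.30 (Eif4e2), −0.0033 to 0.12 (Eif4g1), −0.19 to 0.18 (Eif4g2), −0.097 to 0.041 (Eif4g3), −0.088 to 0.025 (Eif5), −0.055 to 0.037 (Eif5a) and −0.019 to 0.042 (Eif5b). The other 15 were Eef1b2, Eif2b2, Eif2b4, Eif2c2, Eif2c3, Eif2d, Eif2s1, Eif2s2, Eif3a, Eif3d, Eif3k, Eif3l, Eif4b, Eif4enif1 and Eif4h. The cause was not tested. There, a lone library is taken to vary as the other genotype does. No paired analysis was possible because numbers given by accession pair no libraries. Low counts limit Eif4ebp3 and Eif2b3, whose intervals are wide.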

Other observations

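The 3 genes with the largest joint difference between libraries, Eef2k, Eif3c and Eif4g2, all lie on chromosome 7, at 120842831 to 120907450, 126546455 to 126566411 and 111067750 to 111083030 of mm10. This was seen after the values were known. The 911 tested genes of chromosome 7 had median differences of −0.0030 (log2 CPM) between the wild type libraries and −0.01 between the knockout libraries, and Eif3f, also on that chromosome at 108934417 to 108942951, was higher in replicate 3 by 0.17 in wild type and by 0.19 in knockout. Eif3k, the other member on chromosome 7 (28971372 to 28981864), went the opposite way, with differences of −0.19 and −0.26.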
